A study of Mus musculus with 9 samples.

Results

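The genes described here are the matrix metalloproteinases (Mmp), their tissue inhibitors (Timp), the Adamts proteases and the Adamts-like (Adamtsl) proteins of the mouse. Every gene whose symbol follows one of these names was taken, which gave 42 of the 18193 genes measured: 18 Mmp, 4 Timp, 15 Adamts and 5 Adamtsl genes. They were taken by symbol alone, although earlier results of these data were known when this set was chosen. Where a gene had several probe sets, the brightest stood for it. Of the 42 genes, 19 were higher at day 30 than at day 10 and 0 were lower, and 15 of the 19 were already higher at day 20.

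The cells were cardiomyocytes made in culture from a mouse embryonic stem cell line named synp, which was derived from R1 cells of 129X1 x 129S1 background. All samples carried a puromycin resistance gene (PAC) driven by the promoter of Ncx1, the sodium-calcium exchanger gene also called Slc8a1. Activin A, BMP4, VEGF, bFGF together with FGF10 were used to differentiate all of them, and all received puromycin from day 7, which kills cells that do not use that promoter. The groups were cultures kept to day 10, to day 20 or to day 30 of differentiation with selection, each measured on 3 arrays, with no untreated or unselected group. The model is 1 cell line in a dish, so it holds no heart tissue of an animal. The labels do not say whether replicates were separate differentiations, so the p-values measure only the spread between these arrays, which may be technical.

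Matrix metalloproteinases are zinc enzymes, secreted or held at the cell surface, that cut collagens, proteoglycans and other proteins of the extracellular matrix. Most are made as inactive precursors, and Timp proteins block the active enzymes by binding to them. Adamts proteases are related secreted enzymes that cut proteoglycans such as versican and aggrecan or trim procollagens, while Adamtsl proteins share their accessory domains but lack the protease domain. In the heart these proteins take part in the remodelling of the matrix during development and after injury.

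Values are log2 signals as deposited, so a difference of 1 is a 2-fold change, and they ran from 2.77 to 14.52 on the 9 arrays. A signal depends on the probe set as well as on the amount of RNA, so each gene was compared between days. Where a gene is set against the median gene, this describes its signal and not its amount of RNA. Sums of marker signals weigh the brightest probe sets most. The highest and lowest array medians differed by 0.075. Added poly-A control RNAs averaged 5.26 and 5.13 in day 10 replicates 2 and 3, against 5.93 to 6.63 on the other 7 arrays. The 18S control probes averaged 10.27 in day 30 replicate 2, against 12.08 to 13.44 on the other 8 arrays. All 8 cardiomyocyte marker genes lay above the median gene (6.63) on all 9 arrays, so the labelled cell type had its defining markers throughout. Differences are the later day minus the earlier day, with standard errors (SE) and adjusted p-values from a limma fit over all 18193 genes, and a gene was called changed at an adjusted p of 0.05 or less.

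The promoter windows of 6 members are printed because a row of uncalled Mmp genes on chromosome 9 differed in promoter letters from called members. Mmp13, Mmp3 and Mmp10 belong to this row, in which 0 of 9 measured genes were called. At day 30 against day 10, 11.2% of all genes were called higher and 9.92% lower. Timp2, Adamts1 and Adamtsl3 each rose. The windows are from RefSeq on build GRCm38.p6, run 5′ to 3′ along the gene from 250 bases before its start to 50 bases after it, and capitals mark matches on either strand to TGANTCA (the letters that AP-1 factors bind), TATAAA (the TATA box) and GGGCGG (a GC box).
Mmp13, chr9:7272264-7272563, + strand: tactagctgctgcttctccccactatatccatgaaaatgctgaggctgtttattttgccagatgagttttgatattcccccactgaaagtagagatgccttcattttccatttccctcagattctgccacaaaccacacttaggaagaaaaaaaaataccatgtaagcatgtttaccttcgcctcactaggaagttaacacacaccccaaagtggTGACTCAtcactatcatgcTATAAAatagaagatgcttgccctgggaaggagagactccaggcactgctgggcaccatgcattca
Mmp3, chr9:7445572-7445871, + strand: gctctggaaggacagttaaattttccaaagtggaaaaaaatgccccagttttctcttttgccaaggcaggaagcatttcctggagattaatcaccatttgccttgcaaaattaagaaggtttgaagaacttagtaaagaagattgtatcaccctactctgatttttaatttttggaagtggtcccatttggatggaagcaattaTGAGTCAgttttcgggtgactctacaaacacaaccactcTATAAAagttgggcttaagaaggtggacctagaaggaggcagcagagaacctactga
Mmp10, chr9:7502092-7502391, + strand: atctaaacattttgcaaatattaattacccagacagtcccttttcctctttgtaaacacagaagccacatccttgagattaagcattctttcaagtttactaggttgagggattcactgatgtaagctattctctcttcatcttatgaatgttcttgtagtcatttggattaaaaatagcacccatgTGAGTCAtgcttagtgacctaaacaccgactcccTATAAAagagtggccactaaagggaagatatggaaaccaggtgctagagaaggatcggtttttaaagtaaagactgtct
Timp2, chr11:118355362-118355661, - strand: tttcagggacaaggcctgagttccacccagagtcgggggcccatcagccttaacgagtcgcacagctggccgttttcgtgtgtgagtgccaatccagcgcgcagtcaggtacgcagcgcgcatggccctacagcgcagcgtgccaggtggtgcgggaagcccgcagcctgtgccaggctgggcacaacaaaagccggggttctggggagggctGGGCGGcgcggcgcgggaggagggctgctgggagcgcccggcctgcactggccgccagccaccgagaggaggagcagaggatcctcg
Adamts1, chr16:85803064-85803363, - strand: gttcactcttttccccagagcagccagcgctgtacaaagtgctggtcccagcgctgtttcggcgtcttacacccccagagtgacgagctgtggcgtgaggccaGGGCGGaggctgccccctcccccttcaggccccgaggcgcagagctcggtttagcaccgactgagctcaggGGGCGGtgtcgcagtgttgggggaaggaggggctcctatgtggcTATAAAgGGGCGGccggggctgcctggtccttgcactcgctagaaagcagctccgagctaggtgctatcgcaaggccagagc
Adamtsl3, chr7:82335444-82335743, + strand: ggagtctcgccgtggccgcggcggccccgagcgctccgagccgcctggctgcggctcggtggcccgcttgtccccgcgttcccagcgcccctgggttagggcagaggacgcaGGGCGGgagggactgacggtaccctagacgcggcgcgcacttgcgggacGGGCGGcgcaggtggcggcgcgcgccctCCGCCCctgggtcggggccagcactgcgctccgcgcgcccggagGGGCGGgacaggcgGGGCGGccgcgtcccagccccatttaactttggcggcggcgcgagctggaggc
The TGANTCA match in the Mmp13 window lay at bases -35 to -29 from the start, and the TATAAA match at -16 to -11. In the Mmp3 window these matches lay at -46 to -40 and -7 to -2, and in the Mmp10 window at -63 to -57 and -29 to -24. The 3 windows of the genes that rose held no TGANTCA, and the Adamts1 window held TATAAA at -32 to -27. A match is only a match of letters, and no binding was measured.

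The question the days address is how expression changes as these cardiomyocytes are kept in culture. At day 30 against day 10, 19 of the 42 genes were higher (45.2%), against 11.2% of all genes. Members lower at day 30 numbered 0 by limma, against 9.92% of all genes, and 2 members (Adamts9 and Mmp17) were lower at an unadjusted p under 0.05. The median difference was 0.69 over the 42 genes and -0.03 over all genes. Of the 42 genes, 16 were higher by at least 2-fold, against 6.02% of all genes. In all 19 called members the 3 day 30 arrays lay above the 3 day 10 arrays without overlap. A call with 3 arrays a day largely brings this with it, so it adds no support, and its share over all genes was not counted. Uncalled members also separated, Adamts10 upward and Adamts9 and Mmp17 downward. By family, 6 of 18 Mmp, 3 of 4 Timp, 5 of 15 Adamts and 5 of 5 Adamtsl genes were higher at day 30. The count of members higher was 16 without both day 10 arrays with low poly-A control signal, which leaves 1 array at day 10 whose spread is assumed to be that of the other days, and 14 without day 30 replicate 2.

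**Figure D1:**
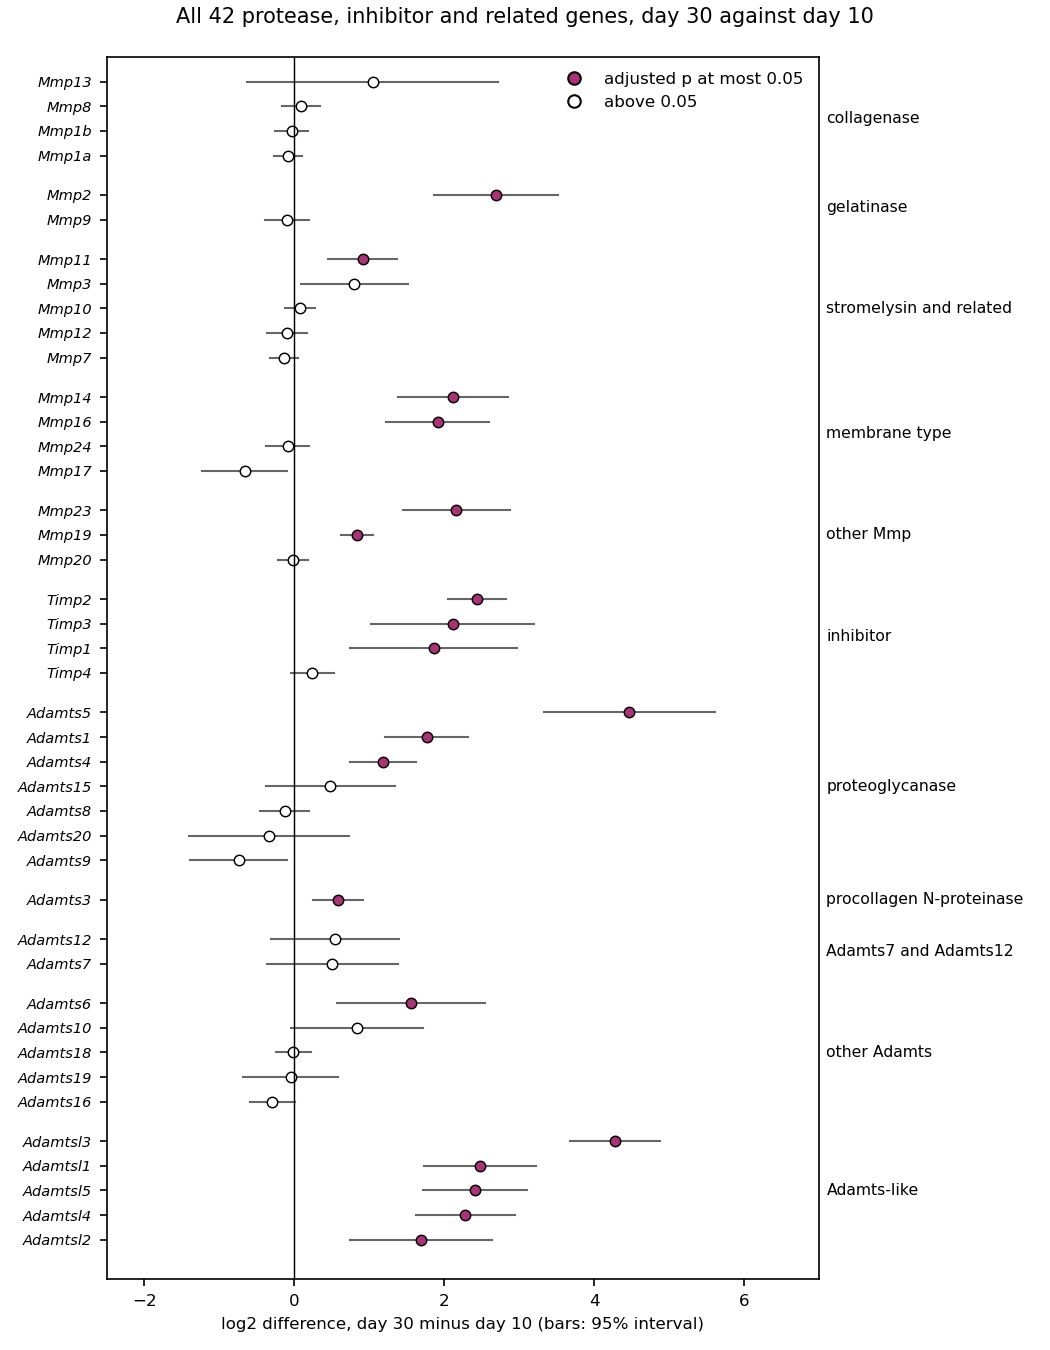
The log2 difference of each of the 42 genes at day 30 minus day 10 is plotted by role, with bars for the 95% interval of the difference, filled points for an adjusted p of at most 0.05 and open points for the rest. All 19 filled points lie to the right of 0, with Adamts5 (4.47) and Adamtsl3 (4.28) farthest out.

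At day 20 against day 10, 15 of the 42 genes were higher, against 7.3% of all genes. Members lower at day 20 numbered 0 by limma, against 6.69% of all genes, and 0 at an unadjusted p under 0.05. The median difference was 0.51 over the members and -0.03 over all genes. All 15 were also called at day 30 against day 10, and the 4 called at day 30 alone were Adamts6, Mmp19, Timp1 and Timp3. At day 30 against day 20, 0 members were called higher by limma, against 0.291% of all genes. Adamts3 was called lower in that comparison, against 0.044% of all genes. At an unadjusted p under 0.05, 6 members were higher and 3 lower (Adamts3, Adamtsl1 and Mmp17) at day 30 against day 20. The share of all genes at an unadjusted p under 0.05 was not counted. The comparisons against day 10 share its 3 arrays, and a gene's call at day 30 and not at day 20 was not tested as a difference except where the later change is given below.

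Marker genes of some other cell types moved over the same days. At day 30 against day 10, 11.2% of all genes were called higher and 9.92% lower, and no list was tested against these shares. The summed linear signal of 10 fibroblast markers ranged over 1995 to 7683 at day 10, 26804 to 52342 at day 20 and 62926 to 73450 at day 30, and 9 of the 10 were called higher at day 30 than at day 10. Only Ddr2 of the 10 stayed below the median gene on all 9 arrays, and it too was called higher by limma (0.67, adjusted p = 0.01). The sum of 6 cartilage markers ranged over 295 to 491 at day 10, 1587 to 2915 at day 20 and 8882 to 11913 at day 30, with 5 of 6 higher and Matn1 below the median gene on all arrays. For 6 smooth muscle markers the sum ranged over 19829 to 26276 at day 10, 14467 to 21047 at day 20 and 8069 to 15896 at day 30. This sum rests mostly on Acta2 and Tagln, and the list was split. At day 30 against day 10 Pdgfrb was called higher (3.15), Acta2 and Cnn1 were called lower, and the median difference was 0.11. The sum of 6 endothelial markers ranged over 191 to 546 at day 10, 162 to 193 at day 20 and 154 to 251 at day 30, with 1 lower, and Pecam1, Emcn and Tie1 lay below the median gene on all arrays. The sum of 6 macrophage and blood markers ranged over 190 to 249 at day 10, 220 to 260 at day 20 and 315 to 492 at day 30, with 1 higher, and Ptprc, Cd68, Adgre1 and Itgam lay below the median gene on all arrays. The sum of 5 epicardial markers ranged over 106 to 338 at day 10, 195 to 297 at day 20 and 196 to 545 at day 30, with none called and with Wt1 and Aldh1a2 below the median gene on all arrays. The cardiomyocyte sum ranged over 33098 to 56106 at day 10, 54899 to 67691 at day 20 and 62688 to 68945 at day 30, with 2 of 8 higher. In these bulk samples fewer cells of a type and less RNA per cell cannot be told apart, and the part of these markers in the changes of the protease genes was not tested.

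Counts by role, here and below, stand beside 11.2% of all genes called higher and 9.92% called lower at day 30 against day 10. With so few genes in a role, no such count was tested against these shares. Among the collagenases, which cut fibrillar collagen, 0 of 4 measured genes (Mmp1a, Mmp1b, Mmp8 and Mmp13) were called at any pair of days. Mmp13, the collagenase of cartilage and bone, had log2 signals of 3.26, 3.14 and 3.14 at day 10, 3.09, 3.05 and 3.10 at day 20, and 3.19, 6.31 and 3.18 at day 30. A single array, day 30 replicate 2, lay above the other 8, which stayed between 3.05 and 3.26. The difference at day 30 against day 10 was 1.05 (SE 0.73, adjusted p = 0.36).

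The gelatinases cut denatured collagen and the type IV collagen of basement membranes, and 1 of 2 was called. Mmp2 had log2 signals of 8.97, 9.52 and 9.83 at day 10, 12.03, 11.91 and 10.85 at day 20, and 11.99, 12.58 and 11.81 at day 30. All arrays of day 20 and day 30 lay above all of day 10, and days 20 and 30 overlapped. Mmp2 rose by 2.69 (SE 0.36, adjusted p = 0.002) at day 30 against day 10 and by 2.16 (SE 0.36, adjusted p = 0.0085) at day 20 against day 10, and both of its probe sets were called higher. Mmp9, the gelatinase of white blood cells, had log2 signals of 4.91, 4.98 and 4.83 at day 10, 4.87, 4.91 and 5.11 at day 20, and 4.57, 5.01 and 4.85 at day 30. The days overlapped, and the difference of day 30 and day 10 was -0.10 (95% interval -0.39 to 0.19, adjusted p = 0.64).

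Of the stromelysins and related enzymes, 1 of 5 was called, against 11.2% of all genes higher and 9.92% lower at day 30 against day 10. Mmp11 (stromelysin 3), which unlike most is activated inside the cell by furin, had log2 signals of 6.69, 7.41 and 7.09 at day 10, 8.23, 8.44 and 8.04 at day 20, and 7.93, 8.20 and 7.80 at day 30. Day 10 lay below both later days without overlap, and days 20 and 30 overlapped. Mmp11 rose by 0.91 (SE 0.20, adjusted p = 0.014) at day 30 against day 10, and without day 30 replicate 2 the difference was 0.80 with an adjusted p of 0.052 by limma. At day 20 against day 10 the rise was 1.18 (SE 0.20, adjusted p = 0.0089). Mmp3 (stromelysin 1), which can activate collagenases, had log2 signals of 4.01, 4.13 and 3.99 at day 10, 4.19, 4.30 and 4.10 at day 20, and 4.84, 5.59 and 4.11 at day 30. Its day 30 arrays spread widely, and the lowest of them lay among the earlier days. The difference at day 30 against day 10 was 0.80 (SE 0.31, adjusted p = 0.11), and it was called without day 30 replicate 3, at 1.17 with an adjusted p of 0.014. Mmp7, Mmp10 and Mmp12 differed by -0.14 to 0.08 at day 30 against day 10, with overlapping days.

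The membrane-type enzymes are anchored at the cell surface, and 2 of 4 measured genes rose. Mmp14 (MT1-MMP) cuts collagen at the cell surface and activates the precursor of Mmp2 in a complex with Timp2. Its log2 signals were 8.33, 9.21 and 8.50 at day 10, 10.64, 9.73 and 9.61 at day 20, and 10.996, 10.52 and 10.90 at day 30. Day 10 was lowest without overlap, and day 20 replicate 1 reached into the range of day 30. Mmp14 rose by 2.12 (SE 0.32, adjusted p = 0.0033) at day 30 against day 10, with 3 of 3 probe sets called, and by 1.31 (SE 0.32, adjusted p = 0.033) at day 20 against day 10. The day 20 call was lost without day 10 replicate 1, day 20 replicate 1 or 2, or day 30 replicate 1 or 3, with adjusted p-values of 0.053 to 0.095. Mmp16 (MT3-MMP) had log2 signals of 5.502, 5.69 and 5.18 at day 10, 7.36, 7.68 and 6.65 at day 20, and 7.60, 6.90 and 7.61 at day 30. Days 20 and 30 overlapped, and both lay above day 10. Mmp16 rose by 1.91 (SE 0.30, adjusted p = 0.0036) at day 30 against day 10 and by 1.77 (SE 0.30, adjusted p = 0.0086) at day 20 against day 10, and 3 of its 4 probe sets were called higher at day 30.

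Mmp17 (MT4-MMP), which is held to the membrane by a lipid anchor, had log2 signals of 6.31, 6.21 and 7.21 at day 10, 6.85, 6.74 and 6.76 at day 20, and 5.72, 5.90 and 6.12 at day 30. The day 30 arrays lay below those of day 10 and day 20 without overlap, yet the difference at day 30 against day 10 missed the threshold at -0.66 (SE 0.25, adjusted p = 0.098). At day 30 against day 20 the difference was -0.87 (SE 0.25, adjusted p = 0.24). Without day 10 replicate 3 Mmp17 was called lower at day 30 than at day 20 (-0.87, adjusted p = 0.040) and higher at day 20 than at day 10 (0.52, adjusted p = 0.022). Mmp24 differed by -0.09 at day 30 against day 10 (adjusted p = 0.68).

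Of the other Mmp genes, 2 of 3 rose. Mmp23, a short enzyme anchored at its N-terminal end, had log2 signals of 7.29, 7.40 and 6.77 at day 10, 9.23, 8.14 and 8.14 at day 20, and 9.05, 9.43 and 9.47 at day 30. Day 10 lay below both later days, and day 20 replicate 1 lay within the range of day 30. Mmp23 rose by 2.16 (SE 0.31, adjusted p = 0.0026) at day 30 against day 10 and by 1.35 (SE 0.31, adjusted p = 0.026) at day 20 against day 10. The day 20 call was lost without day 10 replicate 1 (adjusted p = 0.055) and with only the 2 days compared (adjusted p = 0.072). Mmp19, a secreted enzyme, had log2 signals of 4.65, 4.65 and 4.77 at day 10, 4.97, 4.89 and 5.04 at day 20, and 5.47, 5.46 and 5.67 at day 30. The 3 days did not overlap, although all arrays stayed below the median gene. Mmp19 rose by 0.84 (SE 0.09, adjusted p = 0.00086) at day 30 against day 10, with both probe sets called, and the difference at day 30 against day 20 was 0.57 (SE 0.09, adjusted p = 0.057). Without day 10 replicate 3 this second difference was called at an adjusted p of 0.046. Mmp20, the enamel protease of teeth, differed by -0.02 (adjusted p = 0.91).

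**Figure D2:**
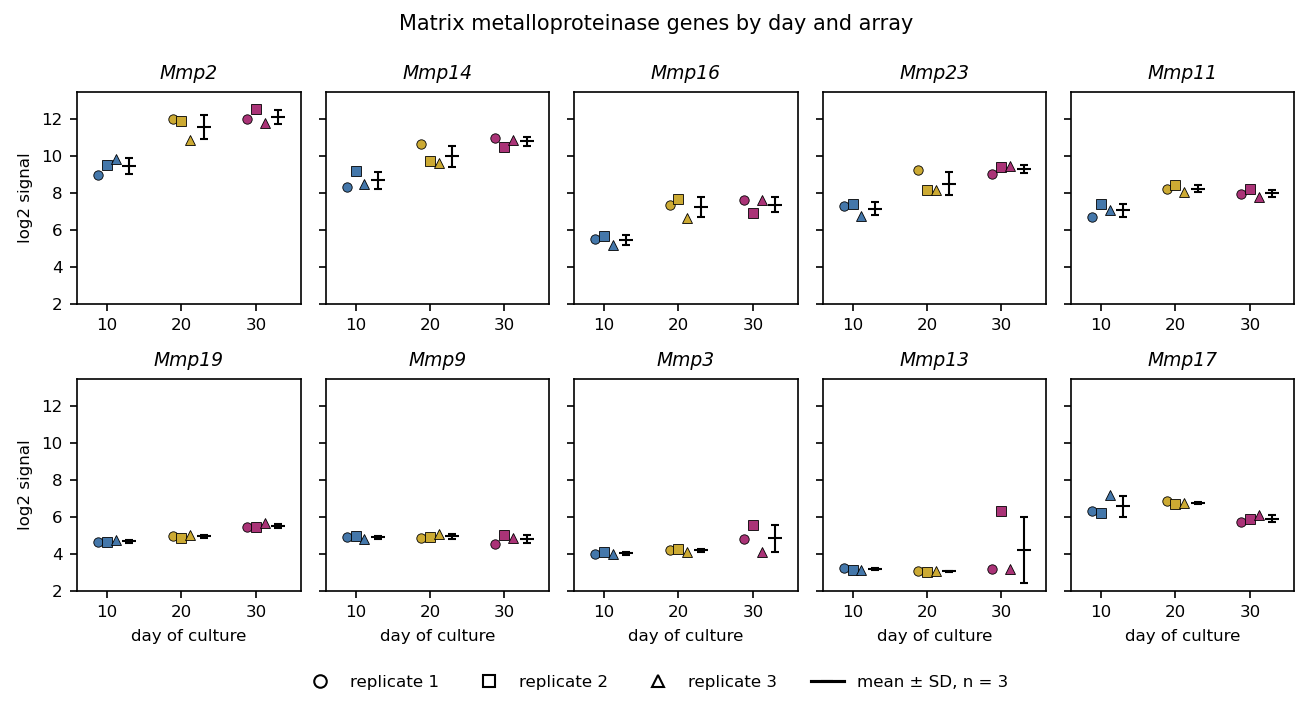
Log2 signal (vertical axes) of 10 Mmp genes is plotted against day of culture, with a symbol for each array by replicate number and the mean ± SD of 3 arrays beside it. Mmp2, Mmp14, Mmp16, Mmp23, Mmp11 and Mmp19 are higher on all 3 day 30 arrays than on all 3 day 10 arrays, while 1 day 30 array sets Mmp13 apart at 6.31.

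The row on chromosome 9 held 9 measured members next to each other in RefSeq order, namely Mmp13, Mmp12, Mmp1b, Mmp3, Mmp1a, Mmp10, Mmp8, Mmp20 and Mmp7, with no other coding gene between them than Mmp27, which was not analysed here. Of these, 0 were called at any pair of days by limma, and only Mmp3 reached an unadjusted p under 0.05 at day 30 against day 10. Their log2 signals ran from 3.05 to 6.31, or to 5.66 without Mmp13, and none exceeded the median gene on any array. All 12 members on chromosome 9 were uncalled at day 30 against day 10, where 11.2% of all genes were called higher and 9.92% lower. Most genes were thus uncalled too, and a link of calls with place in the genome was not tested. Scanner background was not used here, so signal over background was not judged for these genes.

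Promoter windows were found for 27 of the 42 members, and the row's 9 windows differed in letters from those of the genes that rose. Of the 9, 8 held TATAAA, 7 held TGANTCA and 0 held GGGCGG, and their share of G and C bases was 37.7% to 46.7%. The 12 windows of members called higher held TATAAA in 2, TGANTCA in 0 and GGGCGG in 11, with a G and C share of 55.0% to 78.7%. Among all 32851 windows of the table, 13.6% held TATAAA, 7.8% held TGANTCA and 35.7% held GGGCGG, and the median G and C share was 52.7%. These windows cover 27025 genes, some with several windows, whereas each member gave only its first listed window. Neighbouring Mmp genes share ancestry and sequence, so their windows are not independent, and no test was made. High G and C content did not go with a rise in every member: Mmp24 (80.0%), Adamts20 (77.3%), Adamts9 (70.0%) and Adamts18 (66.0%) were uncalled. Timp4 and Adamts12 were the other uncalled members with a window outside the row. The windows of these uncalled members held no TATAAA and no TGANTCA, and those of Mmp24, Adamts20, Adamts9 and Adamts18 held GGGCGG. The difference in letters thus lay mainly between the row and the other windows.

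**Figure D3:**
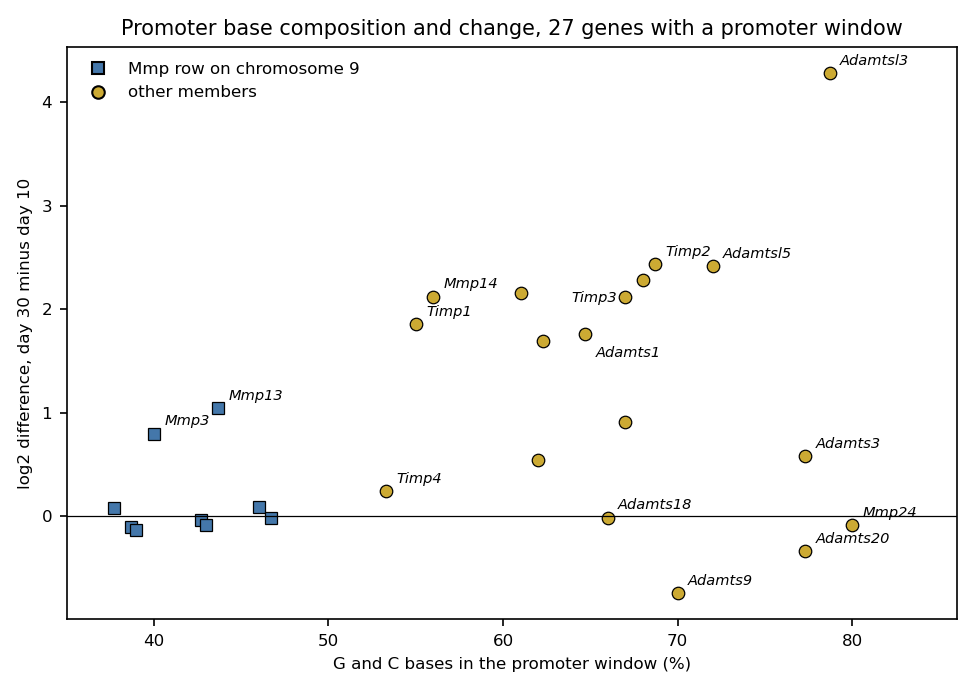
The log2 difference at day 30 minus day 10 is plotted against the percentage of G and C bases in the promoter window for the 27 members that have one, with squares for the chromosome 9 row and circles for the rest. The 9 squares lie between 37.7% and 46.7% with differences from -0.14 to 1.05, and the circles cover differences from -0.74 to 4.28.

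Of the 4 inhibitors, 3 rose. Timp2, which inhibits Mmp2 and also takes part in its activation by Mmp14, had log2 signals of 9.14, 9.22 and 9.13 at day 10, 11.17, 10.57 and 10.50 at day 20, and 11.59, 11.72 and 11.49 at day 30. The 3 days did not overlap, and the day 10 replicates lay close together. Timp2 rose by 2.43 (SE 0.17, adjusted p = 0.00014) at day 30 against day 10 and by 1.58 (SE 0.17, adjusted p = 0.0015) at day 20 against day 10, while day 30 against day 20 gave 0.85 (SE 0.17, adjusted p = 0.11). Without day 20 replicate 1 that last difference was called (1.06, adjusted p = 0.021). Of the 6 Timp2 probe sets, 4 were called higher at day 30, with differences of 0.07 to 2.43 over the 6.

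Timp1, which inhibits most secreted Mmp enzymes but membrane types poorly, had log2 signals of 8.998, 8.07 and 6.91 at day 10, 9.51, 8.84 and 8.71 at day 20, and 9.78, 10.25 and 9.52 at day 30. Day 30 lay above both earlier days, by a narrow margin over day 20, and day 10 spread most. Timp1 rose by 1.86 (SE 0.49, adjusted p = 0.03) at day 30 against day 10. That call was lost without day 10 replicate 2 (adjusted p = 0.071), day 30 replicate 1 (0.076), replicate 2 (0.095) or replicate 3 (0.057). With replicate 1, the highest, as the only day 10 array (both with low poly-A control signal left out), the difference was 0.85 (adjusted p = 0.16). Timp3, which binds to the matrix and inhibits Adamts proteases as well, had log2 signals of 9.69, 7.76 and 8.45 at day 10, 9.98, 9.75 and 9.43 at day 20, and 10.12, 11.18 and 10.95 at day 30. Day 30 lay above both earlier days without overlap, and day 10 replicate 1 lay within the range of day 20. Timp3 rose by 2.11 (SE 0.47, adjusted p = 0.016) at day 30 against day 10, with 4 of 4 probe sets called. Without day 30 replicate 2 or 3 the adjusted p was 0.057 or 0.056, and with replicate 1, again the highest, as the only day 10 array the difference was 1.06 (adjusted p = 0.12). At day 20 against day 10 the difference was 1.08 (SE 0.47, adjusted p = 0.17), and without day 10 replicate 1 it was 1.61 (adjusted p = 0.034).

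Timp4, the inhibitor most associated with the adult heart, had log2 signals of 4.72, 4.91 and 5.06 at day 10, 4.78, 4.90 and 4.85 at day 20, and 5.01, 5.06 and 5.36 at day 30. Days 10 and 30 overlapped, and all arrays lay below the median gene. The difference at day 30 against day 10 was 0.24 (SE 0.12, adjusted p = 0.21). In the limma fit over all probe sets its dimmer probe set gave 0.80 (adjusted p = 0.014), so the probe sets disagreed on the call.

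**Figure D4:**
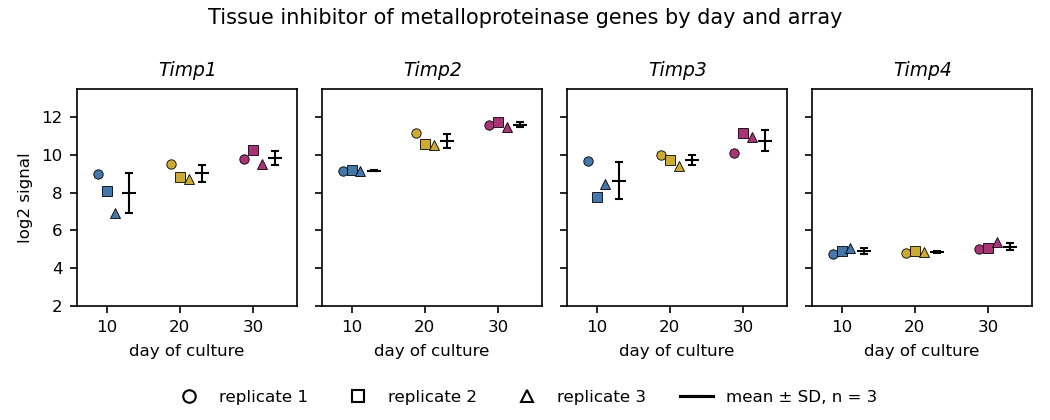
Log2 signal of the 4 Timp genes is plotted against day of culture, with a symbol for each array by replicate number and the mean ± SD of 3 arrays beside it. Timp2 shows 3 separate days, Timp1 and Timp3 show wide day 10 arrays below a higher day 30, and Timp4 stays between 4.72 and 5.36.

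The proteoglycanases of the Adamts family cut versican and aggrecan, and 3 of 7 rose. Adamts5, a main aggrecanase, had log2 signals of 6.37, 6.39 and 5.01 at day 10, 10.31, 9.26 and 8.72 at day 20, and 9.95, 10.84 and 10.39 at day 30. Day 10 lay far below both later days, and day 20 replicate 1 lay within the range of day 30. Adamts5 rose by 4.47 (SE 0.50, adjusted p = 0.00091) at day 30 against day 10, a 22.2-fold change, and by 3.51 (SE 0.50, adjusted p = 0.0048) at day 20 against day 10, with 4 of 4 probe sets called higher at day 30. Adamts1 had log2 signals of 9.75, 10.50 and 10.00 at day 10, 11.83, 11.92 and 11.42 at day 20, and 11.55, 12.19 and 11.80 at day 30. Days 20 and 30 overlapped above day 10. Adamts1, which lies next to Adamts5 on chromosome 16, rose by 1.76 (SE 0.24, adjusted p = 0.0021) at day 30 against day 10 and by 1.64 (SE 0.24, adjusted p = 0.0053) at day 20 against day 10.

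Adamts4, another aggrecanase, had log2 signals of 4.79, 5.19 and 5.09 at day 10, 6.21, 5.78 and 5.57 at day 20, and 5.999, 6.41 and 6.21 at day 30. Day 10 lay below both later days, all arrays lay below the median gene, and day 20 replicate 1 reached into day 30. Adamts4 rose by 1.18 (SE 0.19, adjusted p = 0.0042) at day 30 against day 10 and by 0.83 (SE 0.19, adjusted p = 0.026) at day 20 against day 10. The day 20 call was lost without day 10 replicate 1 (adjusted p = 0.075), day 20 replicate 1 (0.064) or day 20 replicate 2 (0.072). Its other probe set was uncalled, with a difference of -0.0006 at day 30 against day 10. The mean of both rose by 0.59 at day 30 against day 10 and differed by 0.36 (adjusted p = 0.13) at day 20 against day 10. Adamts9, which cuts versican in the developing heart, had log2 signals of 9.20, 8.99 and 9.85 at day 10, 8.52, 9.24 and 8.77 at day 20, and 8.68, 8.93 and 8.21 at day 30. The day 30 arrays lay below the day 10 arrays without overlap, and the difference of -0.74 (SE 0.28, adjusted p = 0.1) missed the threshold. Adamts8, Adamts15 and Adamts20 differed by -0.34 to 0.48 with overlapping days.

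Adamts3 was the single procollagen N-proteinase measured, and besides procollagen it cuts the precursor of the growth factor Vegfc. Its log2 signals were 5.60, 5.58 and 5.61 at day 10, 6.99, 7.18 and 7.23 at day 20, and 6.16, 5.90 and 6.48 at day 30. Day 20 was highest, day 30 was between, and no 2 days overlapped. Adamts3 rose by 1.54 (SE 0.14, adjusted p = 0.00088) at day 20 against day 10 and fell by 0.95 (SE 0.14, adjusted p = 0.045) at day 30 against day 20, which left 0.58 (SE 0.14, adjusted p = 0.023) at day 30 against day 10. The later change minus the earlier change was -2.49 (SE 0.25, adjusted p = 0.014). Against day 10 the day 30 adjusted p was 0.053 to 0.065 without day 10 replicate 1 or 2 or day 30 replicate 1 or 3. Against day 20 it was 0.076 to 0.21 without any single array other than day 10 replicate 3. Its dimmer probe set (mean log2 signal 3.56) was uncalled at each pair of days and showed no peak at day 20. That probe set differed by -0.07 at day 20 against day 10, 0.08 at day 30 against day 20 and 0.0099 at day 30 against day 10. In the limma fit over all probe sets, the fall of the brighter one after day 20 had an adjusted p of 0.058. The mean of both differed by 0.30 (adjusted p = 0.060) at day 30 against day 10. It rose by 0.73 (adjusted p = 0.0036) at day 20 against day 10, and day 30 against day 20 gave -0.44 (adjusted p = 0.14).

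Of the other Adamts genes, Adamts6 was called and Adamts7, Adamts10, Adamts12, Adamts16, Adamts18 and Adamts19 were not. Adamts6 had log2 signals of 4.67, 6.48 and 6.03 at day 10, 7.06, 7.31 and 7.03 at day 20, and 7.42, 7.63 and 6.80 at day 30. Day 10 spread widely below both later days, with replicate 1 lowest. Adamts6 rose by 1.55 (SE 0.43, adjusted p = 0.036) at day 30 against day 10, and by 1.02 (adjusted p = 0.035) without day 10 replicate 1. With replicate 1 as the only day 10 array the difference was 2.61. The adjusted p was 0.055 to 0.11 without any one of day 20 replicates 1 to 3 or day 30 replicates 1 and 2. Its other probe set was not called (0.86, adjusted p = 0.18), and the call was also lost with the mean of both (1.204, adjusted p = 0.071) and with array weights (0.98, adjusted p = 0.066). At day 20 against day 10 the difference was 1.41 (SE 0.43, adjusted p = 0.065), and without day 10 replicate 2 it was 1.78 (adjusted p = 0.042). Adamts10 differed by 0.84 (SE 0.38, adjusted p = 0.16) at day 30 against day 10, and without day 20 replicate 3 it was called at day 20 against day 10 (1.503, adjusted p = 0.042). Adamts7 and Adamts12, which cut the cartilage protein Comp, differed by 0.51 (adjusted p = 0.4) and 0.54 (adjusted p = 0.35). Without day 10 replicate 3 the Adamts12 difference was 1.05 (adjusted p = 0.0012). Adamts16 differed by -0.29 (SE 0.13, adjusted p = 0.16), and without day 10 replicate 1 it was called lower (-0.43, adjusted p = 0.038). Adamts18 and Adamts19 differed by -0.01 and -0.05.

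All 5 Adamts-like genes rose at both later days against day 10. Adamtsl3 had log2 signals of 4.504, 4.51 and 4.56 at day 10, 7.76, 7.09 and 6.99 at day 20, and 8.29, 9.19 and 8.94 at day 30. The 3 days did not overlap. Adamtsl3 rose by 4.28 (SE 0.26, adjusted p = 7.8e-05) at day 30 against day 10, a 19.4-fold change with the smallest adjusted p of the 42 genes, and by 2.75 (SE 0.26, adjusted p = 0.00097) at day 20 against day 10. Day 30 against day 20 gave 1.53 (SE 0.26, adjusted p = 0.069). Adamtsl1 had log2 signals of 4.57, 5.19 and 5.02 at day 10, 8.15, 8.35 and 8.17 at day 20, and 6.74, 8.16 and 7.31 at day 30. The highest day 30 array reached the range of day 20, and the other 2 lay between day 10 and day 20. Adamtsl1 rose by 3.30 (SE 0.33, adjusted p = 0.0011) at day 20 against day 10 and stood 2.48 (SE 0.33, adjusted p = 0.0019) above day 10 at day 30, and its later change minus its earlier change was -4.11 (SE 0.56, adjusted p = 0.032). For that difference between changes, 2 members passed the threshold (Adamts3 and Adamtsl1), against 0.324% of all genes lower. Without one array, 0 members passed it when day 20 replicate 2 or 3 was left out, 1 when day 20 replicate 1 or day 30 replicate 3 was left out, and 5 when day 10 replicate 3 was left out.

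Adamtsl2, which binds fibrillin and a latent TGF-beta binding protein, had log2 signals of 7.32, 7.52 and 7.61 at day 10, 9.75, 10.47 and 9.06 at day 20, and 8.43, 9.83 and 9.26 at day 30. Day 10 lay below both later days, which overlapped. Adamtsl2 rose by 1.69 (SE 0.41, adjusted p = 0.023) at day 30 against day 10 and by 2.27 (SE 0.41, adjusted p = 0.011) at day 20 against day 10. The day 30 call was lost without day 10 replicate 1 (adjusted p = 0.062) or 2 (0.058) or day 30 replicate 2 (0.069) or 3 (0.070). Adamtsl4, which promotes fibrillin fibres, had log2 signals of 5.30, 5.84 and 6.51 at day 10, 7.86, 7.85 and 8.06 at day 20, and 8.22, 8.44 and 7.84 at day 30. Days 20 and 30 overlapped above day 10, where replicate 1 was lowest. Adamtsl4 rose by 2.28 (SE 0.29, adjusted p = 0.0015) at day 30 against day 10 and by 2.04 (SE 0.29, adjusted p = 0.0047) at day 20 against day 10. Adamtsl5 had log2 signals of 4.97, 4.604 and 5.40 at day 10, 7.00, 6.40 and 7.43 at day 20, and 7.07, 7.70 and 7.45 at day 30. Again days 20 and 30 overlapped above day 10. Adamtsl5 rose by 2.41 (SE 0.30, adjusted p = 0.0015) at day 30 against day 10 and by 1.95 (SE 0.30, adjusted p = 0.0064) at day 20 against day 10.

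**Figure D5:**
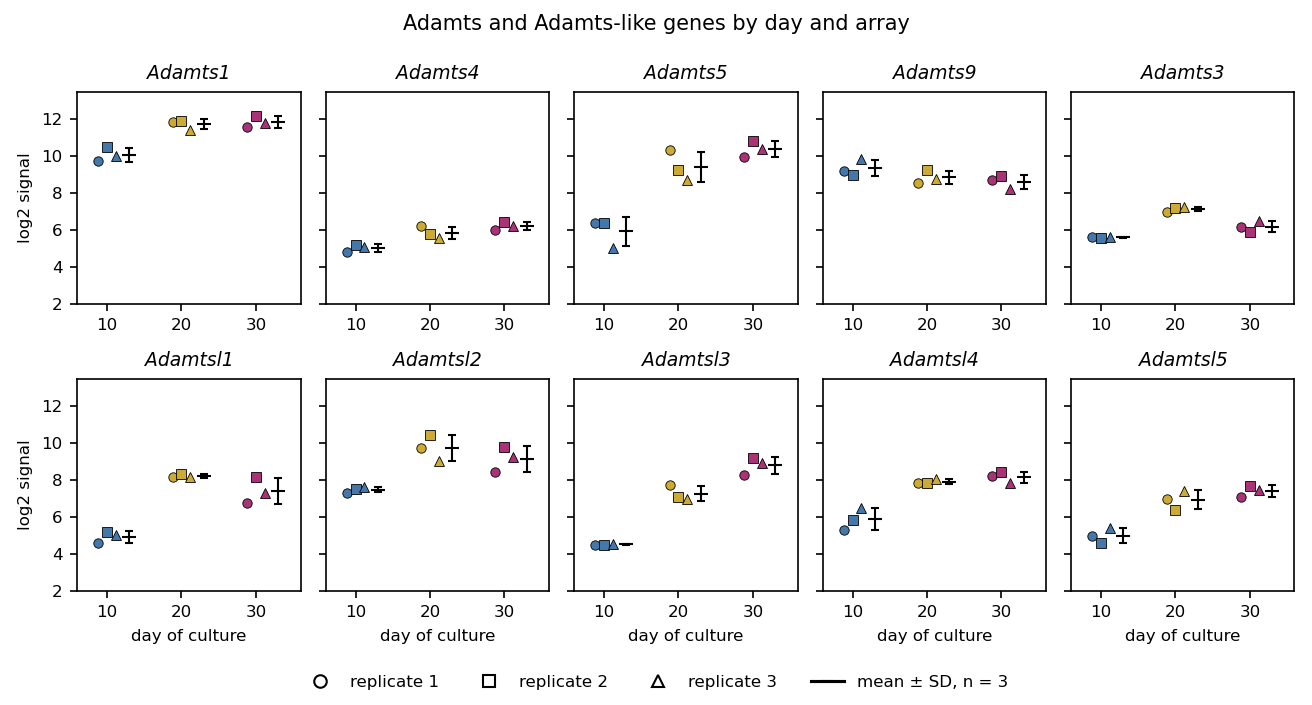
Log2 signal of 5 Adamts and 5 Adamts-like genes is plotted against day of culture, with a symbol for each array by replicate number and the mean ± SD of 3 arrays beside it. Adamts3 peaks at day 20, Adamts9 is lower on all 3 day 30 arrays than on all 3 day 10 arrays without passing the test, and the other 8 genes are higher at both later days than at day 10.

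Over all 78 probe sets of the members, 39 were called higher at day 30 than at day 10, against 8.95% of 34945 probe sets. Of the 21 members with several probe sets, all probe sets were called in 8, some in 6 and none in 7.

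Other genes of the pathway, given by lists, were compared at day 30 against day 10, where 11.2% of all genes were higher and 9.92% lower. Of 27 activators and other proteases at the cell surface or in the matrix, 7 rose and 1 fell, with a median difference of 0.10. Htra3 and Htra1, secreted serine proteases, rose by 1.96 (adjusted p = 0.00078) and 3.27 (adjusted p = 0.0015). Ctsk, a cathepsin that degrades collagen, rose by 2.22 (adjusted p = 0.0019), and Ctsb rose by 0.71 (adjusted p = 0.0084). Adam19 fell by 1.17 (adjusted p = 0.013). Furin, which activates several of these precursors, differed by 0.37 (adjusted p = 0.26).

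Of 19 measured inhibitors and cofactors other than the Timp genes, 8 rose and 11 were not called, against 11.2% of all genes higher, with a median difference of 0.32. Cst3, an inhibitor of cathepsins, rose by 1.81 (adjusted p = 1e-04), and Serpinf1 rose by 2.22 (adjusted p = 0.0047). Spock3, Lrp1 and Pcolce rose by 1.32, 1.94 and 1.38 (adjusted p = 0.016, 0.016 and 0.023). Lrp1 is a receptor that takes up proteases and inhibitors from the matrix, and Pcolce enhances procollagen processing. Of 22 measured substrates, 12 rose and 10 were not called, against the same 11.2%, with a median difference of 1.17. Comp rose by 7.71 (adjusted p = 1.5e-05), Bgn by 5.31 (adjusted p = 4.6e-05) and Col1a1 by 6.28 (adjusted p = 0.00013). Dcn rose by 6.73 (adjusted p = 0.00017) and Eln by 4.999 (adjusted p = 0.00028). Acan, the aggrecan gene, rose by 4.52 (adjusted p = 3e-04), whereas Vcan, the versican gene, differed by -0.96 (adjusted p = 0.070). Acan, Vcan and Furin were named after their values were seen. The substrates share 4 genes with the fibroblast markers and 3 with the cartilage markers, whose sums are given above.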

How the data were processed

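RNA of 9 arrays was analysed. The authors deposited a log2 signal for each probe set on each array. How it was normalized, and to which base the logarithm was taken, is not given in the sources used here, and base 2 was inferred from the range of the values. Per the labels, total RNA was biotin-labelled with a 3 prime kit. Groups and replicate numbers came from the sample titles.

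Of 45101 probe sets, 34945 carried 1 symbol, and only these were named. Each of 18193 genes was represented by its brightest probe set, with no filter on low signal. Genes of the naming rule without such a probe set, such as Adamts2, were not analysed here. limma 3.58.1 (R 4.3.3) estimated a mean per day from the 9 arrays by lmFit, then eBayes, with 2.18 prior degrees of freedom beside 6 residual ones, and two-sided p-values were adjusted by Benjamini-Hochberg over all genes. With 3 arrays a day, the number of arrays limits the precision.

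Members past the threshold by at least 2-fold in any comparison, the Timp genes, Mmp2, Mmp9, Mmp14, Adamts1, Adamts5 and Adamts9 were named with values in every array. Mmp3, Mmp13, Mmp17 and Mmp19 were also shown so after their values were seen. The members, lists and tests were chosen with earlier results of these data known. In simulated day 30 against day 10 data with 18193 genes, the fit found 77 of 100 genes set to a 2-fold change and 85 of 100 set to 4-fold, and 16 of its 178 calls were false. Only these genes were changed there, whereas in the data 11.2% of all genes were called higher and 9.92% lower. The shares found thus need not hold for the data. Alternatives were other normalizations, filters, probe set choices, array weights, an intensity trend, a replicate block, fits of 2 days and leaving out each array. Promoter windows were searched on both strands in Python 3.11.15 and matched to members by symbol. Figures were drawn with matplotlib 3.10.9.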

Additional observations from a re-analysis of the deposited data

Results flagged for a closer look

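In 2 members the later change (day 30 minus day 20) differed from the earlier change (day 20 minus day 10) by the test of that difference in the limma fit. Adamts3 had a later change 2.49 below its earlier change (-2.4914, adjusted p = 0.014), having risen by 1.54 in the first interval and fallen by 0.95 in the next. This holds for its brighter probe set, and its dimmer one showed no such rise and fall (-0.07 and 0.08, both uncalled). Adamtsl1 had a difference between changes of -4.1140 (adjusted p = 0.032), with an earlier rise of 3.30 and a later difference of -0.82 (adjusted p = 0.41). Neither passed the threshold without day 20 replicate 2 or without day 20 replicate 3, where 0 members did. Day 20 enters both changes of a gene, so the changes are not independent measurements.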

How the results depend on the processing

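Leaving out each array in turn gave 14 to 20 members higher at day 30 than at day 10, 0 to 1 lower, 13 to 17 higher at day 20 than at day 10, 0 to 0 lower, 0 to 1 higher at day 30 than at day 20, 0 to 2 lower, and 0 to 5 whose later and earlier changes differed. Calls of Adamts1, Adamts4, Adamts5, Adamtsl1, Adamtsl3, Adamtsl4, Adamtsl5, Mmp2, Mmp14, Mmp16, Mmp19, Mmp23 and Timp2 at day 30 against day 10 were kept in every alternative in which the gene was fitted; Adamts4, Adamtsl5 and Mmp19 were among the dim genes left out. Array weights or the mean of probe sets ended the day 30 call of Adamts6, and the mean of probe sets ended that of Adamts3. With only the 2 days compared, Adamts4, Mmp14 and Mmp23 lost their calls at day 20 against day 10. Their adjusted p-values were then 0.063, 0.081 and 0.072. Array weights also ended this call of Mmp14 (adjusted p = 0.051). The same 2-day fits lost the calls of Adamts3, Adamts6 and Timp1 at day 30 against day 10 (adjusted p = 0.059, 0.092 and 0.068). Leaving out both low-spike arrays leaves 1 array at day 10, whose spread is assumed to be that of the other days. There those of Adamts3, Adamtsl2, Timp1 and Timp3 were lost (adjusted p = 0.12, 0.087, 0.16 and 0.12), as was that of Mmp23 at day 20 against day 10 (adjusted p = 0.10). The count lower at day 30 than at day 20 was 0 with median centring, dim genes left out, the mean of probe sets, the replicate block, only the 2 days compared, the intensity trend or both low-spike day 10 arrays left out. The count higher there was 1 with the mean of probe sets (Mmp19) and 3 with array weights (Adamtsl3, Mmp19 and Timp2). Array weights gave 1 member lower at day 30 than at day 10 (Adamts16). Differing changes numbered 1 with dim genes left out, 7 with array weights and 8 without both low-spike arrays, an alternative chosen after seeing the data, which gave 16 members higher at day 30 and 16 at day 20 than at day 10.

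Of the 27 members whose own differences were recomputed, 7 had a difference that changed sign under an alternative, and each was uncalled in the comparison in question. With the mean of probe sets Mmp9 (-0.072) and Timp4 (0.046) did so at day 20 minus day 10, and Adamts6 (-0.022) and Mmp16 (-0.021) at day 30 minus day 20. Array weights turned Adamts20 at day 30 minus day 20 (-0.074), and leaving out both low-spike arrays turned Timp4 at day 20 minus day 10 (0.13). With single arrays left out, the differences at day 30 minus day 10 ran from -0.20 to 0.021 for Mmp9 and from -0.60 to 0.074 for Adamts20. At day 20 minus day 10 they ran from -0.018 to 0.10 for Mmp9, from -0.14 to 0.030 for Timp4 and from -0.78 to 0.066 for Adamts20. At day 30 minus day 20 they ran from -0.045 to 0.27 for Adamts1, from -0.67 to 0.028 for Adamts10, from -0.25 to 0.44 for Adamts20, from -0.027 to 0.39 for Adamts6 and from -0.15 to 0.37 for Mmp16. The cause was not tested.

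Same-numbered arrays did not deviate together throughout (correlations -0.15 to 0.43). Between day 20 and day 30 the correlation was 0.43 for replicate 2 and 0.30 for replicate 3, but 0.01 for replicate 1. The labels do not tie the numbers to a shared culture, so the main fit did not pair the arrays. Whether some same-numbered arrays share an origin was not tested. An array correlated best with its own number in 8 of 18 comparisons with another day. In 22 genes the lowest replicate 2 array of any day exceeded every array of the other numbers by at least 0.3. Genes highest in replicate 2 within each day alone were not counted. With the replicate number as a block, 0 members were lower at day 30 than at day 20 (Adamts3, adjusted p = 0.071), and Mmp14 at day 20 against day 10 had an adjusted p of 0.057. Scanner files were not used here, so signal over background could not be judged for the members below the median gene.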

Other observations

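Both patterns given here were picked after the values were seen. Day 30 replicate 2, where Mmp13 stood at 6.31 log2 signal, held 37 genes at least 1.5 above all other arrays, against 0 to 29 genes on each of the others. Mmp13 exceeded the next array by 3.04. The 37 included Lcn2 at 10.88, Saa3 at 8.97 and Slpi at 8.93 on that array, against at most 5.95, 5.73 and 6.99 elsewhere. The same array had the lowest 18S signal (10.27), and the part of this in the Mmp13 value was not tested.

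Adamts20, a proteoglycanase known for mouse coat colour, was highest in replicate 2 at every day, with log2 signals of 3.94, 5.05 and 3.69 at day 10, 3.44, 4.75 and 3.45 at day 20, and 3.72, 4.40 and 3.54 at day 30. Its lowest replicate 2 array exceeded the highest array of the other replicate numbers, over all days, by 0.46. By this gap 22 genes reached at least 0.3 in replicate 2, against 0 genes in replicate 1 and 3 genes in replicate 3. The 22 included Vsnl1, with a gap of 2.27, and Tbx5, with a gap of 0.78.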
